A study of Mus musculus with 12 samples.

Results

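Transcripts of 31 genes of cholesterol synthesis, uptake, esterification and efflux were followed in mouse adipose tissue, out of 53431 gene identifiers counted. The members were chosen by name: 9 enzymes that turn acetyl-CoA into squalene, 10 that turn squalene into cholesterol, 4 genes of the sterol sensor built on SREBP2, 3 genes of sterol transport, lipoprotein uptake and esterification, and 5 genes of the liver X receptors (LXR) and efflux. All 31 were found by their Ensembl identifiers, all passed the filter on low counts, and all were in the log2 FPKM table. Tissue came from mice labelled Bbs2-/- that ate feed with the glucosylceramide synthase inhibitor Genz667161 (GCSi) at 0.033% by weight between the ages of 2 and 6 months, from untreated mice labelled Bbs2-/-, and from untreated wild-type (WT) mice. There were 4 libraries in each group. All tissue was taken at 6 months, and all mice shared a mixed C57BL/6 x 129/SvJ background. Bbs2 codes for a subunit of the BBSome, which carries membrane proteins through the primary cilium, and glucosylceramide synthase makes the first glycosphingolipid from ceramide. There was no WT group on the inhibitor, so its action without the mutation was not measured. The labels give neither the kind of Bbs2 allele nor the fat depot, and do not say whether the libraries of a group come from separate animals, so the tests weigh only the spread seen among these libraries.

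Cells make cholesterol from acetyl-CoA through mevalonate, isoprenoid diphosphates and squalene, and then close and trim the sterol rings. When sterol in the endoplasmic reticulum is scarce, SCAP escorts SREBP2 to the Golgi, where it is cut, and the freed part turns on synthesis and uptake genes, often together with the CCAAT-binding factor NF-Y. INSIG proteins hold SCAP back when sterol is plentiful, while oxysterols then activate LXR, which turns on the exporters ABCA1 and ABCG1. Adipocytes store much of their cholesterol unesterified on the lipid droplet surface, and macrophages store it as esters made by SOAT1.

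The libraries held 16317865 to 20224200 estimated counts. Bbs2, read as a check of the labels, was at 65.4, 62.7, 53.7 and 64.1 counts per 1e6 counts (CPM) in libraries labelled Bbs2-/- GCSi, at 69.5, 53.9, 53.7 and 70.6 CPM in untreated Bbs2-/- libraries, and at 12.1, 12.5, 12.7 and 12.7 CPM in WT libraries. The level was higher in the libraries labelled Bbs2-/-, which is not the direction of a lost transcript, and the deleted stretch of the gene is not given, so transcript level does not check the genotype and all directions below rest on the labels. Ugcg, which codes for the drug's target enzyme, was at 35.1 to 51.1 CPM with GCSi, 39.8 to 58.9 CPM in untreated Bbs2-/- and 28.9 to 37.5 CPM in WT libraries. Libraries GCSi 1, GCSi 3, WT 1 and WT 4 held 48 to 164 counts of the motile cilium gene Foxj1, against at most 2 in the other 8 libraries. WT 2 and WT 3 carry library names of another form than the other 10, whose names speak of merging. Summed epididymis markers were at 1130 CPM in WT 1, 169 CPM in WT 3 and 9.65 CPM in WT 4, and at 0.155 to 1.86 CPM in the other 9 libraries. Of the 8 markers, 1 passed the filter on low counts, at a log2 CPM of 7.41 in WT 3 and 0.05 in WT 1. The sum in WT 3 was thus nearly all this marker, whereas that in WT 1 came almost wholly from the others. WT 1 also had the most macrophage marker RNA of the WT libraries, at 4540 CPM. The tissue label was checked with 15 mature adipocyte markers, none of them at 0 in any library, which summed to 33800 to 54100 CPM with GCSi, 16300 to 21100 CPM in untreated Bbs2-/- and 32500 to 54200 CPM in WT libraries.

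Promoters show what the members share in sequence. RefSeq windows on GRCm38.p6 of 250 bases before to 50 after a transcript start were at hand for 26 of the 31 genes. The NF-Y box CCAAT, on either strand, was in a window of 15 of 16 synthesis enzymes with an entry, Acat2 lacking it, against 41.1% of all 27025 genes with windows. It was in those of 9 of 9 sterol ring enzymes, and in 0 of the 4 LXR and efflux genes Nr1h2, Nr1h3, Abca1 and Apoe. Genes with several starts have several windows, and a match in any of them was counted, for members and for all genes. The sterol regulatory element form TCACNCCAC, on either strand, was in Hmgcs1 alone among the 26, and in 1.44% of all genes. The LXR response element DR4, as an exact repeat on either strand, was in 0 of the 26 and in 0.0148% of all genes. At so low a share, 0 of 26 does not tell these genes from others. These exact letters describe the windows. A match is not a measured binding site, and a window without one may hold an element in another spelling. The stretches below show 5 synthesis promoters with their boxes, followed by 2 of the LXR and efflux genes without one, each read 5′ to 3′ on the gene's strand, with motif letters in capitals. That of Hmgcs1 (chr13:119690206-119690315, plus strand) lies 145 to 36 bases before the RefSeq start and holds the sterol element and an NF-Y box in reverse (ATTGG). The other stretches are the last 100 bases before a RefSeq start, those of Mvd (chr8:122443423-122443522, minus strand), Lss (chr10:76531505-76531604, plus strand), Cyp51 (chr5:4104698-4104797, minus strand), Msmo1 (chr8:64733579-64733678, minus strand), Nr1h3 (chr2:91195117-91195216, minus strand, 1 of its 2 windows) and Abca1 (chr4:53159896-53159995, minus strand).
Hmgcs1: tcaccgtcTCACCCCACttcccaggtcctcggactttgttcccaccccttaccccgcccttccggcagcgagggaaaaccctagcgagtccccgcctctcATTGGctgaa
Mvd: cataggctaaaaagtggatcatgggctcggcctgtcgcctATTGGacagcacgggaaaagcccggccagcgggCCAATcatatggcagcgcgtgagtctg
Lss: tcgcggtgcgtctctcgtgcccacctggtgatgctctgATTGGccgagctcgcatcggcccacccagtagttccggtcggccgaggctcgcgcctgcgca
Cyp51: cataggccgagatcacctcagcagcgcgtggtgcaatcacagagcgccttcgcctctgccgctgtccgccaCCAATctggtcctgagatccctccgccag
Msmo1: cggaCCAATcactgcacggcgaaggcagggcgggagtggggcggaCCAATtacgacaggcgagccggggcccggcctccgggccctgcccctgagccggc
Nr1h3: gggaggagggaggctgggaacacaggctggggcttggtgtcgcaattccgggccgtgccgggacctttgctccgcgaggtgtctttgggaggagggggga
Abca1: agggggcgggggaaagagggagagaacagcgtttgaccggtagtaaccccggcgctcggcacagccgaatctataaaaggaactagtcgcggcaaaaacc

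**Figure D1:**
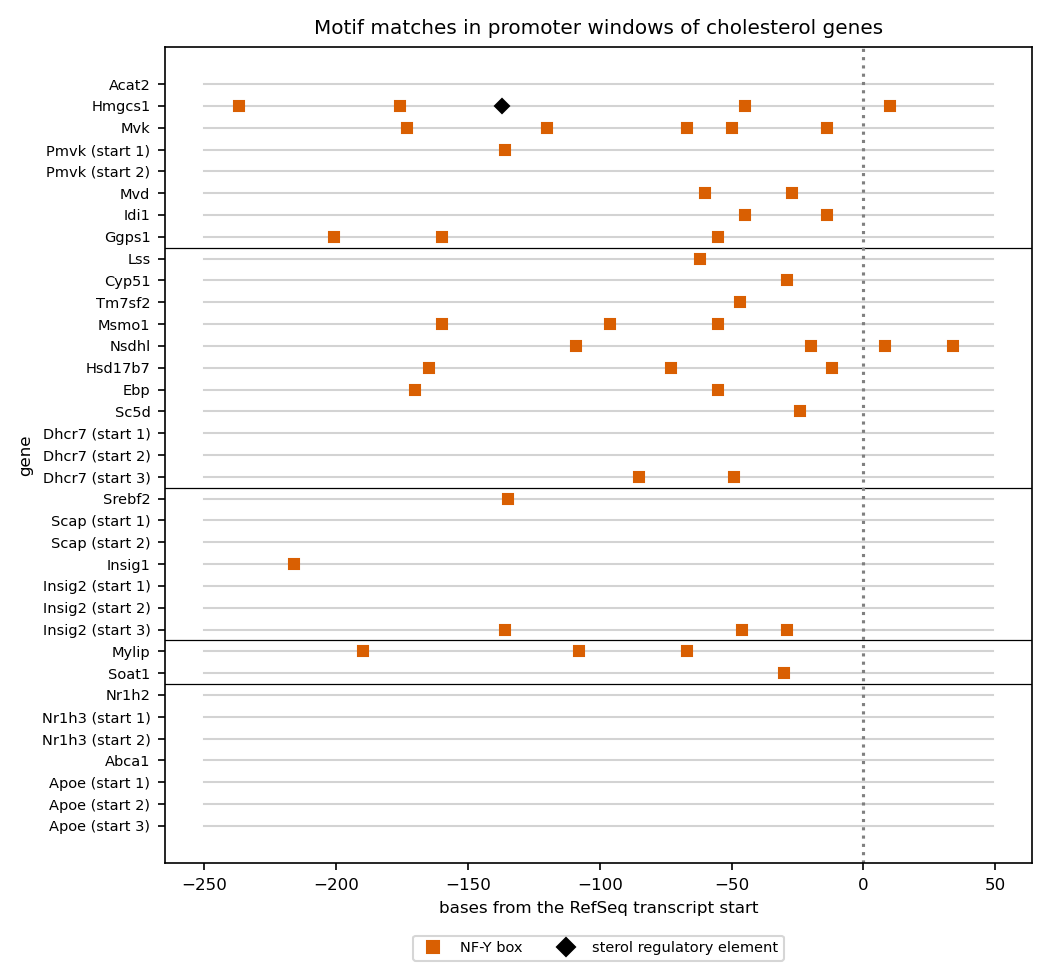
Positions of NF-Y box and sterol regulatory element matches in RefSeq promoter windows of 26 member genes, in bases from the transcript start (dotted line), with 1 row per window and lines between the roles. Matches cover 15 of 16 synthesis enzymes and 0 of 4 LXR and efflux genes.

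On the authors' log2 FPKM scale (fragments per kilobase and per 1e6), which is per length and so lets genes be compared, the apolipoprotein Apoe stood highest in WT libraries at 11.12 ± 0.3 (SD, n = 4). Hmgcs1, which makes HMG-CoA, followed at 7.53 ± 0.29, then the LXR gene Nr1h3 at 6.12 ± 0.3 and Insig1 at 6.11 ± 0.26. Lowest were Soat1 at 2.39 ± 1.04, the sterol carrier Stard4 at 2.36 ± 0.28 and Hsd17b7 at 1.63 ± 0.2. Most synthesis enzymes lay between, from 2.7 for Sqle to 5.81 for Pmvk, with Hmgcs1 above and Hsd17b7 below that span.

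In untreated Bbs2-/- against WT adipose, 13 of the 31 genes rose and 5 fell at an adjusted p under 0.05 in edgeR's quasi-likelihood test with Benjamini-Hochberg adjustment over 15968 genes, while 13 did not pass. These were 41.9% and 16.1% of the members, against 19.6% and 19.7% of all genes tested, of which 39.2% passed in either direction. The members' median log2 fold change was 0.37, against -0.019 over all genes. Libraries of the groups did not overlap for 12 members above and 5 below, against 19.5% and 17.2% of all genes. In GCSi against untreated Bbs2-/- adipose, 7 members rose, 8 fell and 16 did not pass. These were 22.6% and 25.8% of the members, against 18.5% and 18.8% of all genes, of which 37.2% passed in either direction. Here the median was -0.14, against 0.032 over all genes, and libraries did not overlap for 8 members above and 10 below, against 19% and 20.7% of all genes. The 2 comparisons share the untreated Bbs2-/- libraries, so opposite signs in them are not independent.

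Without scaling for composition, by library size alone, the first comparison gave 16 higher and 3 lower and the second 4 higher and 11 lower. Under that scaling the median of all genes itself moved to 0.164 and -0.097. All genes called were 6465 and 5897, against 6263 and 5947 in the main fit. Most of them were higher in the first comparison and lower in the second, as for the members. No member that passed in either comparison changed direction under it, whereas Mvk, Scap, Nr1h2 and Apoe in untreated Bbs2-/- against WT and Mylip with GCSi, which did not pass, changed sign. Without the 4 libraries with Foxj1 counts, 11 members rose and 4 fell in the first comparison and 5 rose and 8 fell in the second. All genes called were then 6161 and 5336. Without WT 1, 14 members rose and 5 fell in the first, where 7212 of all genes were called.

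**Figure D2:**
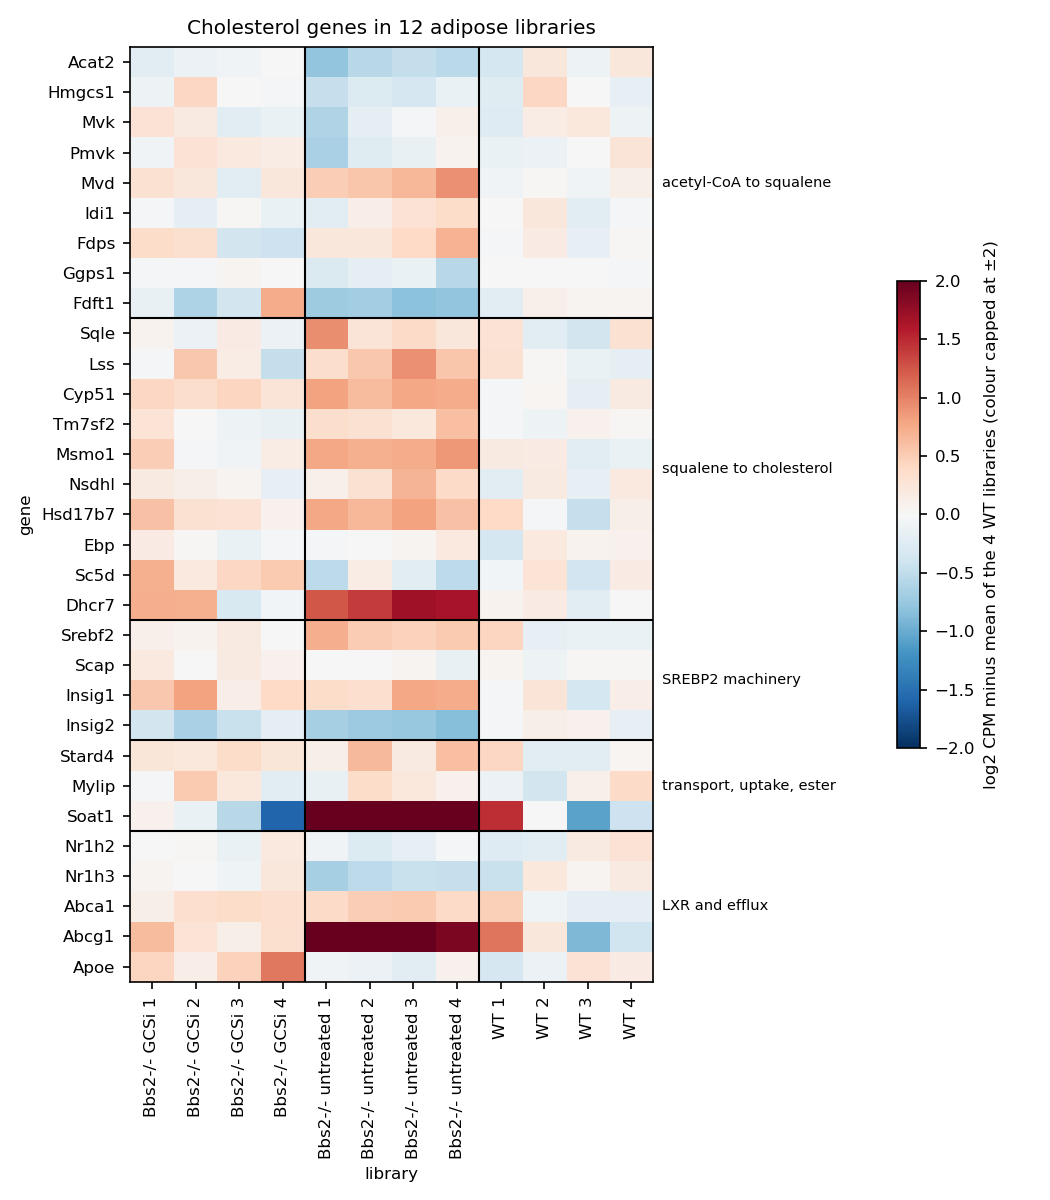
Level of each of the 31 genes in each of the 12 libraries, as log2 CPM minus the mean of the 4 WT libraries, with colours capped at 2 in either direction. Rows follow the roles from acetyl-CoA to efflux, and columns run through GCSi, untreated Bbs2-/- and WT libraries. Dhcr7, Soat1 and Abcg1 are the darkest rows in the untreated Bbs2-/- libraries.

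The 9 enzymes from acetyl-CoA to squalene did not move one way. In untreated Bbs2-/- against WT adipose, Acat2, Ggps1 and Fdft1 fell, Mvd rose, and 5 did not pass. With GCSi against untreated Bbs2-/-, Acat2, Ggps1 and Fdft1 rose, Mvd fell, and the other 5 did not pass. So 33.3% of the 9 rose and 11.1% fell with GCSi, against 18.5% and 18.8% of all genes. In untreated Bbs2-/- against WT 11.1% rose and 33.3% fell, against 19.6% and 19.7% of all genes. The median of the 9 was 0.28 with GCSi against untreated Bbs2-/- and -0.23 in untreated Bbs2-/- against WT. By library size alone 1 fell in untreated Bbs2-/- against WT and 2 rose with GCSi, and on leaving out 1 library 1 to 3 fell and 1 to 4 rose.

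Acat2, the thiolase that joins acetyl-CoA units, was at 69, 73.8, 76.4 and 80.2 CPM with GCSi, at 46.4, 54.6, 57.6 and 55.4 CPM in untreated Bbs2-/- and at 62.6, 94.3, 74.6 and 94.1 CPM in WT libraries. All 4 untreated Bbs2-/- libraries lay below the other 8. The log2 fold change was 0.48 ± 0.13 (SE) for GCSi against untreated Bbs2-/- (edgeR adjusted p = 0.0116) and -0.61 ± 0.13 for untreated Bbs2-/- against WT (adjusted p = 0.0033). Its estimated counts were fractional in all 12 libraries, so some of its reads were shared with other genes.

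Mvd, the decarboxylase that makes isopentenyl diphosphate, was at 11.6, 11, 8.1 and 10.9 CPM with GCSi, at 13.2, 13.7, 14.8 and 17.7 CPM in untreated Bbs2-/- and at 8.88, 9.53, 8.89 and 10.2 CPM in WT libraries. The untreated Bbs2-/- libraries lay above all others. Its log2 fold change was -0.51 ± 0.14 (edgeR adjusted p = 0.0116) with GCSi against untreated Bbs2-/- and 0.66 ± 0.14 (adjusted p = 0.00278) in untreated Bbs2-/- against WT.

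Fdft1, the squalene synthase that commits isoprenoids to sterols, was at 45.9, 33.3, 39.6 and 85.2 CPM with GCSi, at 31.2, 31.6, 29 and 29.7 CPM in untreated Bbs2-/- and at 43.9, 54.6, 53.3 and 53.3 CPM in WT libraries. The untreated Bbs2-/- libraries were lowest and close together, and GCSi 4 was far above the other GCSi libraries. Fdft1 overlaps Ctsb on the opposite strand. Its log2 fold change was 0.75 ± 0.23 (edgeR adjusted p = 0.0256) with GCSi against untreated Bbs2-/- and -0.75 ± 0.23 (adjusted p = 0.0235) in untreated Bbs2-/- against WT. The first call was lost without any 1 of the 4 untreated Bbs2-/- libraries, at adjusted p of 0.0524 to 0.0679. The second was lost without untreated Bbs2-/- 2, 3 or 4 or WT 2, 3 or 4, at adjusted p of 0.0505 to 0.0652.

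Ggps1, which makes geranylgeranyl diphosphate for protein prenylation, was at 33, 33.2, 35.2 and 33.7 CPM with GCSi, at 27.7, 29.9, 30.9 and 23.1 CPM in untreated Bbs2-/- and at 33.6, 34.1, 34.1 and 33.4 CPM in WT libraries. Untreated Bbs2-/- libraries were below all others, by a small margin. Ggps1 had a log2 fold change of 0.28 ± 0.09 (edgeR adjusted p = 0.0291) with GCSi against untreated Bbs2-/- and -0.28 ± 0.09 (adjusted p = 0.0282) in untreated Bbs2-/- against WT. The first was lost without GCSi 3 or 4 or untreated Bbs2-/- 1, 2 or 4 (adjusted p of 0.0527 to 0.0994), and the second without untreated Bbs2-/- 1, 2 or 4 or WT 2, 3 or 4 (0.0501 to 0.112).

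The 5 others, Hmgcs1, the kinases Mvk and Pmvk, the isomerase Idi1 and the farnesyl diphosphate synthase Fdps, had log2 fold changes of 0.38, 0.2, 0.37, -0.24 and -0.38 with GCSi against untreated Bbs2-/-, and of -0.32, -0.17, -0.23, 0.15 and 0.39 in untreated Bbs2-/- against WT, none past the threshold. Hmgcs1 ranged over 504 to 723 CPM with GCSi, 396 to 493 CPM in untreated Bbs2-/- and 457 to 721 CPM in WT libraries. In the first of these comparisons Hmgcs1 passed without WT 2 (adjusted p = 0.0411), Idi1 without untreated Bbs2-/- 1 (0.0332), and Pmvk without GCSi 1 or untreated Bbs2-/- 4 (0.0308 to 0.0424). Without the 4 libraries with Foxj1 counts Hmgcs1 passed in both, at 0.52 (edgeR adjusted p = 0.0466) and -0.52 (0.042). With GCSi it also passed in a fit of the compared groups alone (0.0433) and without WT 2 and WT 3 (0.0446).

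The sterol ring enzymes moved more in one direction. Of the 10, 7 rose in untreated Bbs2-/- against WT adipose, namely Lss, Cyp51, Tm7sf2, Msmo1, Nsdhl, Hsd17b7 and Dhcr7, while Sqle, Ebp and Sc5d did not pass. That was 70% of the 10, against 19.6% of all genes that rose. The median log2 fold change of the 10 was 0.52, against -0.019 over all genes. With GCSi against untreated Bbs2-/-, Cyp51, Tm7sf2, Msmo1 and Dhcr7 fell, Sc5d rose, and 5 did not pass, with a median of -0.38 against 0.032 over all genes. Here 40% of the 10 fell and 10% rose, against 18.8% and 18.5% of all genes. Of the 7, 4 passed with limma-trend on log2 FPKM and 3 without WT 2 and WT 3. Without the 4 libraries with Foxj1 counts Lss, Tm7sf2 and Nsdhl were lost (adjusted p of 0.0589 to 0.14) and Sqle was gained (0.0234). By library size alone Sqle, Lss and Nsdhl fell with GCSi in addition to the 4. Markers of several other cell types moved with these enzymes. Of 18 macrophage markers 17 fell with GCSi against untreated Bbs2-/- and 15 rose in untreated Bbs2-/- against WT, of 10 preadipocyte and fibroblast markers 5 fell and 6 rose, and of 10 T and B cell markers 3 fell and 6 rose, with no marker of these lists at 0 in any library. In the same comparisons 18.8% of all genes fell and 19.6% rose. The preadipocyte and fibroblast markers summed to 2360 to 2900 CPM with GCSi, 4620 to 5390 CPM in untreated Bbs2-/- and 2260 to 3900 CPM in WT libraries. The T and B cell markers summed to 19.8 to 119 CPM with GCSi, 251 to 390 CPM in untreated Bbs2-/- and 14.7 to 35.4 CPM in WT libraries. The part of these cells in the changes of the enzymes was not tested.

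**Figure D3:**
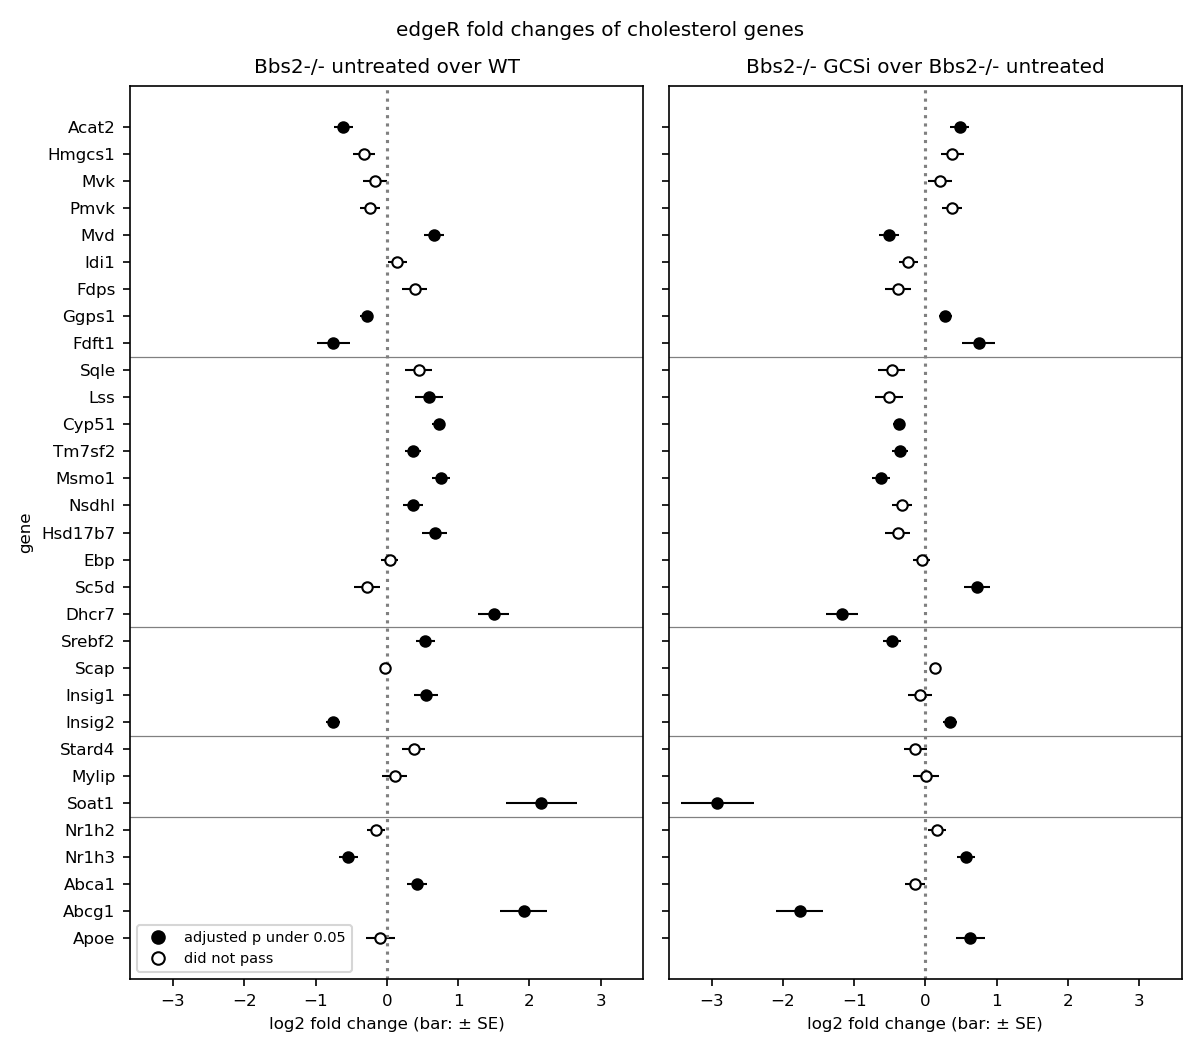
Log2 fold change of each of the 31 genes with its standard error, for untreated Bbs2-/- over WT (left) and GCSi over untreated Bbs2-/- (right), in edgeR. Filled points passed an adjusted p of 0.05. Most sterol ring enzymes are right of 0 on the left and left of 0 on the right, and Soat1 and Abcg1 lie farthest out.

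Dhcr7, the reductase of the last step to cholesterol (gene at chr7:143823145-143848410, mm10), was at 29, 28.7, 14.2 and 16.8 CPM with GCSi, at 41.5, 46.1, 56.6 and 55.1 CPM in untreated Bbs2-/- and at 18.4, 19.7, 15 and 17.4 CPM in WT libraries. Untreated Bbs2-/- libraries were all above the other 8, and GCSi 1 and 2 were above every WT library. The log2 fold change was -1.17 ± 0.22 with GCSi against untreated Bbs2-/- (edgeR adjusted p = 0.00155) and 1.5 ± 0.22 in untreated Bbs2-/- against WT (adjusted p = 0.000392). Both calls were kept in all 25 alternatives run.

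Cyp51, the lanosterol demethylase, was at 27.7, 26.6, 28 and 24.8 CPM with GCSi, at 36.3, 32.4, 35.5 and 34.7 CPM in untreated Bbs2-/- and at 20.2, 21.5, 18.4 and 23.6 CPM in WT libraries. No 2 of the 3 groups overlapped, and the GCSi libraries lay between the others. Cyp51 had a log2 fold change of -0.37 ± 0.09 (edgeR adjusted p = 0.00634) with GCSi against untreated Bbs2-/- and 0.73 ± 0.09 (adjusted p = 0.000169) in untreated Bbs2-/- against WT.

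Msmo1, which oxidises the methyl groups on the A ring, was at 40.4, 27.8, 27.1 and 31.8 CPM with GCSi, at 48.6, 46.7, 48 and 52.3 CPM in untreated Bbs2-/- and at 32.3, 32, 24.7 and 26.1 CPM in WT libraries. Untreated Bbs2-/- libraries were again above all others. Msmo1 fell by 0.62 ± 0.13 on the log2 scale with GCSi against untreated Bbs2-/- (edgeR adjusted p = 0.00365) and rose by 0.76 ± 0.13 in untreated Bbs2-/- against WT (adjusted p = 0.00111). Hsd17b7, the ketoreductase of the same demethylation, was at 12.6, 10.4, 10.3 and 8.92 CPM with GCSi, at 14.4, 13.3, 14.7 and 12.7 CPM in untreated Bbs2-/- and at 11.1, 8.18, 6.1 and 9.13 CPM in WT libraries. It rose by 0.67 ± 0.17 in untreated Bbs2-/- against WT (edgeR adjusted p = 0.00849), and its value of -0.39 ± 0.17 with GCSi did not pass (adjusted p = 0.0926), but did without WT 3 (0.0466).

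Tm7sf2, a sterol reductase after Cyp51, was at 31.2, 25.6, 24.1 and 23.3 CPM with GCSi, at 33, 31.9, 30 and 39.1 CPM in untreated Bbs2-/- and at 25.5, 24.1, 27.5 and 26.3 CPM in WT libraries. Its log2 fold changes were -0.36 ± 0.11 (edgeR adjusted p = 0.0232) with GCSi against untreated Bbs2-/- and 0.37 ± 0.11 (0.0192) in untreated Bbs2-/- against WT. The first was lost without GCSi 3 or 4 or untreated Bbs2-/- 4 (adjusted p of 0.0531 to 0.0653), and the second without WT 2 (0.0537). Tm7sf2 overlaps Vps51 on the same strand, and its counts were fractional in all 12 libraries.

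Lss, which closes the rings to lanosterol, was at 24.6, 36.6, 28 and 18.1 CPM with GCSi, at 32.1, 36.6, 47.6 and 37.1 CPM in untreated Bbs2-/- and at 31, 25.5, 23 and 22 CPM in WT libraries. It rose by 0.59 ± 0.2 in untreated Bbs2-/- against WT (edgeR adjusted p = 0.0313), a call lost without untreated Bbs2-/- 3 or WT 2, 3 or 4 (0.0633 to 0.0838). Its -0.51 ± 0.2 with GCSi did not pass (adjusted p = 0.0572), and passed without GCSi 2 or WT 1 (0.0129 to 0.0495). Nsdhl, the decarboxylating dehydrogenase of the same demethylation, was at 57.4, 54.7, 52.3 and 45.2 CPM with GCSi, at 54.4, 62.2, 80.8 and 66.1 CPM in untreated Bbs2-/- and at 43.8, 57, 45 and 57.9 CPM in WT libraries, where the groups overlapped. Its 0.37 ± 0.14 in untreated Bbs2-/- against WT (edgeR adjusted p = 0.0485) was lost in 18 of 25 alternatives. Of these, 8 left out 1 library, namely GCSi 1, 2 or 3, untreated Bbs2-/- 2, 3 or 4 or WT 1 or 3 (0.0511 to 0.127). With GCSi its -0.33 ± 0.14 did not pass (0.0764), and passed without untreated Bbs2-/- 1 (0.0409).

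Sc5d, the desaturase before Dhcr7, went the other way from most of the list. It was at 186, 130, 151 and 163 CPM with GCSi, at 79.2, 126, 97.5 and 79.5 CPM in untreated Bbs2-/- and at 110, 137, 86.9 and 128 CPM in WT libraries. All GCSi libraries were above all untreated Bbs2-/- ones. Sc5d had a log2 fold change of 0.72 ± 0.18 with GCSi against untreated Bbs2-/- (edgeR adjusted p = 0.00828) and -0.28 ± 0.18 in untreated Bbs2-/- against WT (0.242). Without the 4 libraries with Foxj1 counts the calls with GCSi of Sc5d (0.63, adjusted p = 0.0747), Mvd (-0.42, 0.0646), Ggps1 (0.28, 0.119) and Insig2 (0.37, 0.0546) did not pass, at log2 fold changes near those over all libraries. Sqle, the squalene epoxidase, had a log2 fold change of -0.47 ± 0.19 with GCSi against untreated Bbs2-/- (adjusted p = 0.0709, or 0.0479 without untreated Bbs2-/- 4) and of 0.45 ± 0.19 in untreated Bbs2-/- against WT (0.0834, or 0.0478 without WT 1). The isomerase Ebp was at -0.05 ± 0.12 and 0.04 ± 0.12 in the same comparisons.

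**Figure D4:**
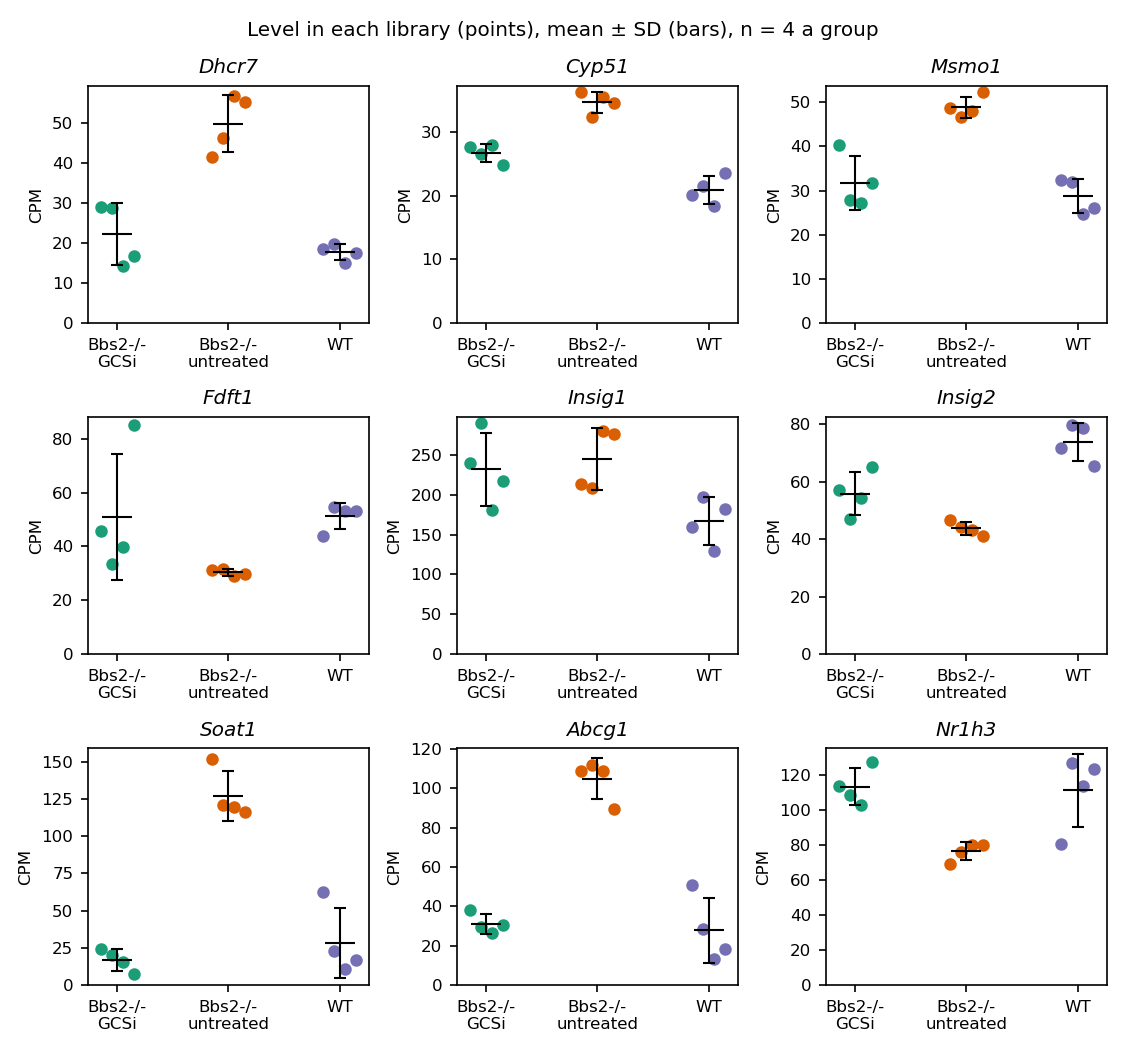
Level in CPM of 9 members in each library (points), with the mean and SD of each group of 4 (bars). Untreated Bbs2-/- libraries stand above both other groups for Dhcr7, Cyp51, Msmo1, Soat1 and Abcg1, and below both for Fdft1 and Insig2.

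Of the sensor genes, Srebf2 and Insig1 rose and Insig2 fell in untreated Bbs2-/- against WT adipose, and with GCSi against untreated Bbs2-/- Srebf2 fell and Insig2 rose. Srebf2, which codes for SREBP2, was at 43.4, 42.6, 45.9 and 40.2 CPM with GCSi, at 67.2, 57.5, 55.7 and 58.6 CPM in untreated Bbs2-/- and at 54.6, 36.3, 36.9 and 37 CPM in WT libraries. WT 1 was near the untreated Bbs2-/- libraries and the other WT libraries were below all GCSi ones. Srebf2 had a log2 fold change of -0.47 ± 0.13 (edgeR adjusted p = 0.013) with GCSi against untreated Bbs2-/- and 0.54 ± 0.13 (adjusted p = 0.00655) in untreated Bbs2-/- against WT. Scap, the escort, was at 41.2 to 47 CPM with GCSi, 37.3 to 42.6 CPM in untreated Bbs2-/- and 38.6 to 42.6 CPM in WT libraries and did not pass in either comparison.

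The pair of INSIG genes moved in opposite directions in untreated Bbs2-/- against WT. Insig1, itself an SREBP2 target, was at 240, 290, 181 and 218 CPM with GCSi, at 214, 209, 281 and 277 CPM in untreated Bbs2-/- and at 160, 198, 129 and 182 CPM in WT libraries. It rose by 0.55 ± 0.17 in untreated Bbs2-/- against WT (edgeR adjusted p = 0.023), a call lost without untreated Bbs2-/- 3 or WT 3 (0.0521 to 0.0676). With GCSi against untreated Bbs2-/- its value was -0.08 ± 0.17 (0.745), and those groups overlapped. Insig2 was at 57.2, 47.1, 54.1 and 64.9 CPM with GCSi, at 46.5, 44.3, 43.3 and 40.9 CPM in untreated Bbs2-/- and at 71.5, 79.8, 78.5 and 65.5 CPM in WT libraries. No 2 groups overlapped, with GCSi libraries between the others. It fell by 0.75 ± 0.1 on the log2 scale in untreated Bbs2-/- against WT (edgeR adjusted p = 0.000275) and rose by 0.35 ± 0.1 with GCSi (0.019). That second call was lost without GCSi 4 or untreated Bbs2-/- 2, 3 or 4 (0.0583 to 0.0752).

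Among transport, uptake and ester genes, Soat1 changed most, with the widest log2 fold change of the 31 members in both comparisons. Soat1 codes for the enzyme that esterifies cholesterol for storage (gene at chr1:156424525-156474331, mm10). It was at 23.9, 20.5, 15.3 and 7.5 CPM with GCSi, at 152, 121, 120 and 116 CPM in untreated Bbs2-/- and at 62.7, 22.6, 10.8 and 17 CPM in WT libraries. All untreated Bbs2-/- libraries were above the rest, and WT 1 was highest of the other 8. The log2 fold change was -2.92 ± 0.51 with GCSi against untreated Bbs2-/- (edgeR adjusted p = 0.00133) and 2.17 ± 0.5 in untreated Bbs2-/- against WT (0.00553). The second was lost without WT 2 and WT 3 together, but not on leaving out any single library. Stard4, which carries sterol between membranes, and Mylip, a ligase that marks lipoprotein receptors for degradation, did not pass. With GCSi against untreated Bbs2-/-, Stard4 was at -0.14 ± 0.16 and Mylip at 0.01 ± 0.18 on the log2 scale. In untreated Bbs2-/- against WT, Stard4 was at 0.38 ± 0.16 (adjusted p = 0.0848, or 0.0103 without WT 1) and Mylip at 0.11 ± 0.18.

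Macrophage markers moved with Soat1. The summed level of 18 markers, none at 0 in any library, was 2390, 1770, 1180 and 894 CPM in GCSi 1 to 4, 9680 to 14900 CPM in untreated Bbs2-/- libraries and 947 to 4540 CPM in WT libraries, with WT 1 highest of the WT libraries for the markers and for Soat1. Of the 18, 17 fell with GCSi against untreated Bbs2-/- and 15 rose in untreated Bbs2-/- against WT. These were 94.4% and 83.3% of them, against 18.8% and 19.6% of all genes. In bulk tissue, fewer cells of a type and less RNA per cell cannot be told apart, and the part of macrophages in the changes of Soat1 and, below, of Abcg1, Lipa, Olr1 and Msr1 was not tested. Markers of cell division, 12 in number, moved with the sterol ring enzymes too, at 103 to 151 CPM summed with GCSi, 324 to 407 CPM in untreated Bbs2-/- and 92.7 to 225 CPM in WT libraries, and their part was not tested either.

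LXR and efflux genes did not move as a group. In untreated Bbs2-/- against WT adipose, Abcg1 and Abca1 rose, Nr1h3 fell, and Nr1h2 and Apoe did not pass. With GCSi against untreated Bbs2-/-, Nr1h3 and Apoe rose, Abcg1 fell, and Nr1h2 and Abca1 did not pass. In each comparison 40% of the 5 rose and 20% fell. Of all genes, 18.5% rose and 18.8% fell with GCSi, and 19.6% and 19.7% in untreated Bbs2-/- against WT. The median of the 5 was 0.16 with GCSi against untreated Bbs2-/- and -0.09 in untreated Bbs2-/- against WT.

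Abcg1, which exports cholesterol to lipoprotein particles (gene at chr17:31057675-31117988, mm10), was at 37.9, 29.5, 26.4 and 30.3 CPM with GCSi, at 109, 112, 109 and 89.3 CPM in untreated Bbs2-/- and at 50.8, 28.6, 13 and 18.5 CPM in WT libraries. Untreated Bbs2-/- libraries were all above the rest, and WT 1, with the most macrophage marker RNA in WT, was the highest of the others. Abcg1 had a log2 fold change of -1.76 ± 0.33 with GCSi against untreated Bbs2-/- (edgeR adjusted p = 0.0019) and 1.92 ± 0.33 in untreated Bbs2-/- against WT (0.0012), both kept in all 25 alternatives. Abca1, which exports cholesterol to apolipoprotein, was at 248, 289, 296 and 287 CPM with GCSi, at 298, 322, 327 and 298 CPM in untreated Bbs2-/- and at 317, 216, 200 and 199 CPM in WT libraries. WT 1 lay within the untreated Bbs2-/- range and the other 3 WT libraries below every other library. It rose by 0.42 ± 0.14 in untreated Bbs2-/- against WT (edgeR adjusted p = 0.0329), a call lost without untreated Bbs2-/- 1, 2 or 3 or WT 2, 3 or 4 (0.0511 to 0.0942), and its value with GCSi was -0.15 ± 0.14 (0.423).

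Nr1h3, which codes for LXR alpha, was at 114, 109, 103 and 128 CPM with GCSi, at 69.3, 76.2, 80.4 and 80.2 CPM in untreated Bbs2-/- and at 81, 127, 114 and 124 CPM in WT libraries. The untreated Bbs2-/- libraries were lowest, with WT 1 just above them. Nr1h3 had a log2 fold change of 0.57 ± 0.13 (edgeR adjusted p = 0.00543) with GCSi against untreated Bbs2-/- and -0.54 ± 0.13 (0.00688) in untreated Bbs2-/- against WT. The mature adipocyte markers moved the same way, 13 of 15 rising with GCSi against untreated Bbs2-/- and 13 falling in untreated Bbs2-/- against WT. That was 86.7% each time, against 18.5% of all genes rising and 19.7% falling. WT 1 had the lowest sum of these markers among the WT libraries, 32500 CPM. Their part in the change of Nr1h3 was not tested. Nr1h2, which codes for LXR beta, had a log2 fold change of 0.16 ± 0.13 with GCSi against untreated Bbs2-/- and of -0.15 ± 0.13 in untreated Bbs2-/- against WT.

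Apoe, whose protein accepts exported cholesterol, was at 3410, 2790, 3480 and 5270 CPM with GCSi, at 2420, 2340, 2190 and 2690 CPM in untreated Bbs2-/- and at 2010, 2330, 3080 and 2850 CPM in WT libraries. GCSi libraries were all above the untreated Bbs2-/- ones, and both overlapped WT. Apoe had a log2 fold change of 0.63 ± 0.2 with GCSi against untreated Bbs2-/- (edgeR adjusted p = 0.0247), lost without GCSi 4 or untreated Bbs2-/- 1, 2 or 3 (0.0541 to 0.0746), and -0.09 ± 0.2 in untreated Bbs2-/- against WT (0.743).

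Against WT, 0 of the 31 members passed in GCSi adipose in edgeR, where 0.175% of all genes rose and 0.0814% fell, or 0.257% in either direction. At an unadjusted edgeR p under 0.05, 4 members were higher and 1 was lower. The share of all genes at that unadjusted threshold was not computed, so this count cannot be read against it. DESeq2 called Cyp51 higher, by 0.36 on the log2 scale (adjusted p = 0.0225), and Insig2 lower, by -0.4 (adjusted p = 0.031). In edgeR these were 0.36 ± 0.09 (adjusted p = 0.164) and -0.4 ± 0.1 (0.171), and they were the members whose GCSi and WT libraries did not overlap, 1 above and 1 below, against 2.68% and 2.21% of all genes. The members' median was 0.06, with a range of -0.75 for Soat1 to 0.54 for Apoe. A value that did not pass does not show that the groups were alike: the standard error of Soat1 was 0.49 in this comparison and that of Dhcr7 0.22, beside estimates of -0.75 and 0.33.

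To set synthesis against efflux, the mean log2 CPM of the 5 LXR and efflux genes was subtracted from that of the 19 synthesis enzymes in each library. This difference was -2.12, -2.11, -2.24 and -2.49 with GCSi, -2.34, -2.25, -2.17 and -2.17 in untreated Bbs2-/- and -2.22, -1.99, -2.09 and -2.04 in WT libraries. GCSi and untreated Bbs2-/- libraries overlapped. WT 1 lay within their range, whereas WT 2, 3 and 4 were above all 8 Bbs2-/- libraries. Group means differed by -0.01 for GCSi minus untreated Bbs2-/-, by -0.15 for untreated Bbs2-/- minus WT and by -0.16 for GCSi minus WT. The early and late steps did not move alike. The sterol ring mean was 4.76 to 5.12 with GCSi, 5.24 to 5.36 in untreated Bbs2-/- and 4.57 to 4.84 in WT libraries, with untreated Bbs2-/- above both, whereas the mean from acetyl-CoA to squalene was 5.58 to 5.74, 5.35 to 5.7 and 5.54 to 5.82 in the same order, with overlap. The LXR and efflux mean was 7.43 to 7.71 with GCSi, 7.63 to 7.66 in untreated Bbs2-/- and 7.17 to 7.38 in WT libraries, so untreated Bbs2-/- and GCSi libraries were above WT ones. In untreated Bbs2-/- against WT the 5 genes did not rise as a set, with a median log2 fold change of -0.09. Abcg1 was at 1.92 and Abca1 at 0.42, whereas Nr1h3, Nr1h2 and Apoe were at -0.54, -0.15 and -0.09. The fall of Nr1h3 alone was larger than the rise of Abca1. So the higher efflux mean, and with it the sign of the difference between these 2 groups, rested on Abcg1 alone. The efflux mean and the difference were not computed without Abcg1. Summed CPM, most of which come from Apoe for efflux, gave another order. The 5 LXR and efflux genes summed to 3280 to 5780 CPM with GCSi and 2760 to 3220 CPM in untreated Bbs2-/-. In WT libraries they summed to 2500 to 3480 CPM, which overlapped both. The 19 synthesis enzymes summed to 1260 to 1470, 1070 to 1290 and 1120 to 1490 CPM in the same order of groups. Whether the synthesis and efflux groups differ was not tested.

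**Figure D5:**
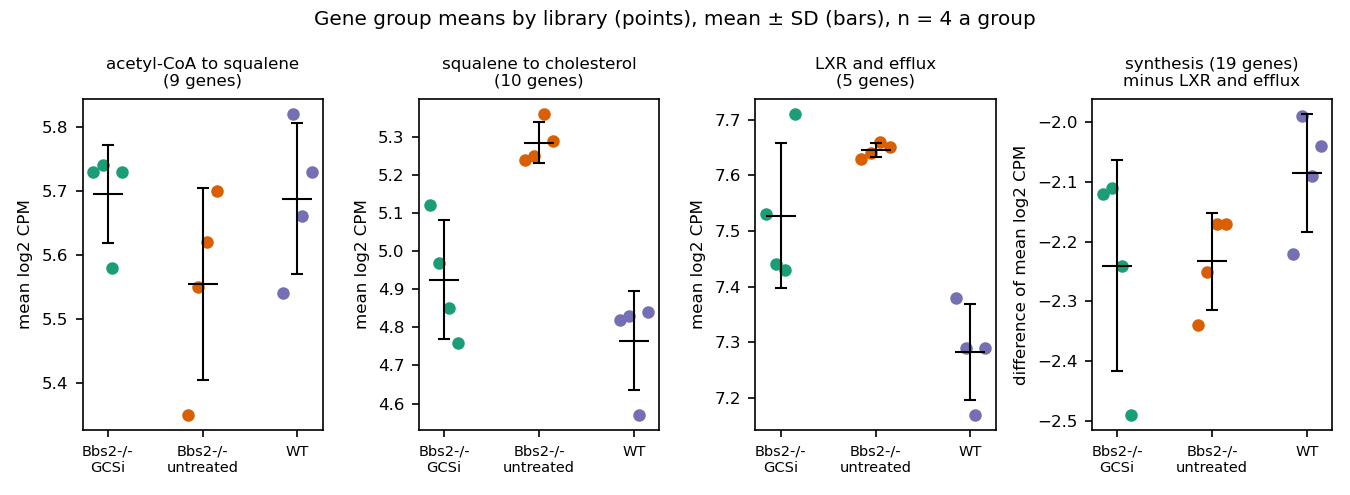
Mean log2 CPM of the 9 enzymes from acetyl-CoA to squalene, of the 10 sterol ring enzymes and of the 5 LXR and efflux genes in each library, and the difference between all 19 synthesis enzymes and the efflux genes. Points are libraries and bars the mean and SD of 4. The sterol ring panel has untreated Bbs2-/- at 5.24 to 5.36, above both other groups, and in the difference panel GCSi and untreated Bbs2-/- overlap, with WT 1 within their range and the other WT libraries above it.

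Counts over the lists of neighbouring genes are read against 18.5% of all genes that rose and 18.8% that fell with GCSi against untreated Bbs2-/-, and 19.6% and 19.7% in untreated Bbs2-/- against WT. Of 12 other genes of SREBP processing and its partner factors, 1 rose and 3 fell with GCSi against untreated Bbs2-/-, and 2 rose and 1 fell in untreated Bbs2-/- against WT, or 8.33%, 25%, 16.7% and 8.33% of them, beside those shares. Nfya, a subunit of the factor that binds the CCAAT box, was at 29.4, 30.8, 32.3 and 27.9 CPM with GCSi, at 60.1, 70.4, 68.6 and 59.3 CPM in untreated Bbs2-/- and at 39.3, 31.4, 29.8 and 29.5 CPM in WT libraries. It fell by 1.1 ± 0.11 on the log2 scale with GCSi against untreated Bbs2-/- (edgeR adjusted p = 5.38e-05) and rose by 0.99 ± 0.11 in untreated Bbs2-/- against WT (8.76e-05). The other subunits, Nfyb and Nfyc, did not follow it. Their values were 0.27 ± 0.12 and 0.23 ± 0.09 with GCSi against untreated Bbs2-/- (edgeR adjusted p = 0.0887 and 0.0631). In untreated Bbs2-/- against WT they were -0.18 ± 0.12 and -0.01 ± 0.09 (0.239 and 0.955). Ufd1, a cofactor in degradation from the endoplasmic reticulum, had log2 fold changes of 0.43 ± 0.09 and -0.38 ± 0.09.

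Of 12 genes of lysosomal release and sterol transfer, 1 rose and 4 fell with GCSi against untreated Bbs2-/-, and 5 rose and 1 fell in untreated Bbs2-/- against WT. These were 8.33%, 33.3%, 41.7% and 8.33% of them, beside 18.5%, 18.8%, 19.6% and 19.7% of all genes. Lipa, the lysosomal acid lipase that frees cholesterol from esters, was at 126, 115, 82.7 and 70.2 CPM with GCSi, at 740, 605, 566 and 487 CPM in untreated Bbs2-/- and at 284, 102, 74.5 and 112 CPM in WT libraries. The GCSi libraries had the same order in the macrophage sum. The order of untreated Bbs2-/- 3 and 4, and that of WT 2 and WT 4, was reversed in that sum. The endosomal sterol binder Stard3 had log2 fold changes of -0.75 ± 0.11 and 0.69 ± 0.11, and the oxysterol-binding protein gene Osbpl1a fell by 0.92 ± 0.12 on the log2 scale in untreated Bbs2-/- against WT. Of 8 other uptake receptors, 1 rose and 3 fell with GCSi, and 3 rose and 1 fell in untreated Bbs2-/- against WT, or 12.5%, 37.5%, 37.5% and 12.5% of them. The scavenger receptors Olr1 and Msr1 fell with GCSi, by 2.98 ± 0.45 and 3.45 ± 0.63 on the log2 scale, and Sort1, a sorting receptor, fell by 1.01 ± 0.18 in untreated Bbs2-/- against WT.

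Of 6 oxysterol enzymes, 3 rose and 1 fell with GCSi against untreated Bbs2-/-, and 1 rose and 3 fell in untreated Bbs2-/- against WT. These were 50%, 16.7%, 16.7% and 50% of them, beside 18.5%, 18.8%, 19.6% and 19.7% of all genes. The cholesterol hydroxylase gene Ch25h was low, at 0.327 to 0.682 CPM with GCSi, 1.7 to 2.88 CPM in untreated Bbs2-/- and 0.135 to 0.398 CPM in WT libraries, with no overlap between untreated Bbs2-/- and the rest. Of 13 other LXR targets and cofactors, 11 were tested, of which 2 rose and 3 fell with GCSi, and 4 rose and 2 fell in untreated Bbs2-/- against WT. These were 18.2%, 27.3%, 36.4% and 18.2% of the 11. Pltp, a phospholipid transfer gene, had log2 fold changes of -1.62 ± 0.28 and 1.62 ± 0.28 in those comparisons, and Rxra, the receptor that pairs with LXR, of 0.95 ± 0.11 and -0.67 ± 0.11. A list of 14 genes of fatty acid synthesis and its control held Srebf1, which codes for the sister factor SREBP1, and also Mlxipl and Thrsp. Of the 14, 7 rose with GCSi against untreated Bbs2-/- and 7 fell in untreated Bbs2-/- against WT, or 50% each time. The mature adipocyte markers moved the same way in these comparisons, and their part was not tested. Srebf1 was at 359, 313, 326 and 472 CPM with GCSi, at 164, 144, 153 and 149 CPM in untreated Bbs2-/- and at 214, 254, 218 and 213 CPM in WT libraries. It rose by 1.27 ± 0.13 with GCSi against untreated Bbs2-/- (edgeR adjusted p = 6.43e-05), fell by 0.56 ± 0.13 in untreated Bbs2-/- against WT (0.00459), and was 0.71 ± 0.13 higher with GCSi than in WT (0.0477).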

How the data were processed

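Adipose RNA went into TruSeq Stranded mRNA libraries, as the labels' protocols record. The authors deposited a table of estimated counts per gene, without scaling, and a table of log2 FPKM values for 18810 genes. The median over libraries of its upper quartile is 3.96. The genome build named in the submitters' processing notes is mm10, while the aligner, the counter and the strand used in counting are not given in the sources at hand. Fdft1, Cyp51, Ggps1 and Mvd overlap another protein-coding gene on the opposite strand and Tm7sf2 and Fdps one on the same strand, so their counts are less certain.

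Rounded counts went into edgeR 4.0.16 under R 4.3.3 (TMM scaling, filterByExpr, robust quasi-likelihood test, all 12 libraries in 1 fit by group), with Benjamini-Hochberg adjustment over 15968 genes and a threshold of 0.05. CPM are per 1e6 counts of the TMM-scaled library, and means of log2 CPM have a prior count of 2. Symbols came from GENCODE on the same build, for 52207 of 53431 identifiers. Between libraries of 1 group, chi-square per degree of freedom over genes was 17.8 to 84.9, far above sampling noise, so none repeats another.

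The members, the gene lists and the tests were chosen with earlier results of these data known. The text gives library values for members that passed in a comparison and for Srebf2, Insig1, Abca1, Abcg1 and Apoe, and up to 2 genes with the smallest p from each other pathway list. Nfyb and Nfyc are given in addition, beside Nfya. Promoter sequences and starts are from RefSeq. Alternatives were DESeq2 1.42.0 and its size factors, library size alone, other filters, the compared groups alone, limma-voom and limma-trend (limma 3.58.1), the replicate number as a block, a log2 fold change of at least 1, and leaving out libraries.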

Additional observations from a re-analysis of the deposited data

Results flagged for a closer look

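Among 108 groups of 4 libraries for which Dixon's test was run, on the 31 members, on 4 summed lists and on the synthesis minus efflux difference, 7 had a library far from its group, where chance alone flags about 1 in 20. Of the 7, 3 were in WT 1: Srebf2 at 54.6 CPM and Abca1 at 317 CPM were its group's highest values, and Fdft1 at 43.9 CPM was its group's lowest. Hmgcs1 was at 723 CPM in GCSi 2, above the 504 to 538 CPM of the other GCSi libraries. Stard4 was at 24.1 CPM in GCSi 3, in a group whose lowest library had 21.7 CPM. Soat1 was at 152 CPM in untreated Bbs2-/- 1, the library with the highest summed macrophage markers, and Abcg1 was at 89.3 CPM in untreated Bbs2-/- 4, the lowest of its group.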

How the results depend on the processing

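No member's call turned round in any alternative. Of 13 members higher in untreated Bbs2-/- than in WT, 8 were called with limma-trend on log2 FPKM, 3 with a log2 fold change of at least 1 and 5 without WT 2 and WT 3, and of 5 lower, 3 by library size alone, 0 at that fold change and 2 without WT 2 and WT 3. Of 7 higher with GCSi than in untreated Bbs2-/-, 4 were called by library size alone and 0 at that fold change, and of 8 lower, 3 at that fold change. Over all genes, untreated Bbs2-/- against WT gave 6263 calls, 2590 at that fold change and 3417 without WT 2 and WT 3, and GCSi against untreated Bbs2-/- gave 5947 and 2473 at that fold change. GCSi against WT gave 41 genes, 275 with DESeq2 (with 1 member higher and 1 lower), 2 in a fit of those groups alone, 24 with limma-trend on log2 FPKM, 9 with the replicate block, 21 at that fold change, 1 without WT 2 and WT 3 and 2 without the Foxj1 libraries. Causes of these shifts were not tested. Leaving out each library gave 9 to 14 and 3 to 5 members higher and lower in untreated Bbs2-/- than in WT, 3 to 8 and 7 to 10 with GCSi against untreated Bbs2-/-, and 3 to 49 genes for GCSi against WT. The share of called genes that were higher was 69% by library size alone against 49.9% for untreated Bbs2-/- against WT, and 35.5% against 49.6% for GCSi against untreated Bbs2-/-. The synthesis minus efflux differences moved between -0.19 and -0.11, between -0.05 and 0.08 and between -0.2 and -0.07 for untreated Bbs2-/- minus WT, GCSi minus untreated Bbs2-/- and GCSi minus WT.

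Replicate numbers did not meet the rule for pairing, a correlation over 0.1 in every pair: residuals of same-numbered libraries correlated between -0.149 and 0.308, and for GCSi and untreated Bbs2-/- by 0.308, 0.116, 0.144 and 0.0999, with 3 of 4 GCSi and 3 of 4 untreated Bbs2-/- libraries closest to their own number. With the replicate block, 11 members were higher and 5 lower in untreated Bbs2-/- than in WT, 9 higher and 9 lower with GCSi against untreated Bbs2-/-, and 0 passed for GCSi against WT. Gained with GCSi against untreated Bbs2-/- were Hmgcs1 (edgeR adjusted p = 0.0424), Pmvk (0.0215) and Lss (0.0495). Lost in untreated Bbs2-/- against WT were Nsdhl (0.078) and Abca1 (0.0516).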
